A study of Mus musculus with 6 samples.

Results

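The 9 genes Sox9, Runx2, Acan, Comp, Chad, Cytl1, Ibsp, Mgp and Enpp1, which are known from osteochondrogenic change of arterial smooth muscle, were followed across the cells of the mouse proximal pulmonary artery (PA). They were taken by symbol out of 53647 listed genes by a rule that uses no measured value, though earlier results of these data were known when they were chosen. All 9 had at least 1 unique molecular identifier (UMI, 1 counted mRNA molecule) in the cells kept. Single cell RNA sequencing of the proximal PA of C57BL/6J mice gave 2 young libraries, both of mice aged 3 months (3m and f3m), and 4 old libraries at 20, 24, 27 and 28 months (20m, 24m, m27mo and f28m). No treatment or altered allele is given for any library, and every comparison here concerns age or cell type. Libraries f3m and f28m came from females and m27mo from a male, and the other libraries are described as male.

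In arteries, smooth muscle cells (SMCs) can take on features of cartilage and bone cells, and this change accompanies calcification of the wall. Sox9 is the transcription factor that sets the cartilage program, and Runx2 is its counterpart for bone. Acan, Comp, Chad and Cytl1 encode aggrecan, cartilage oligomeric matrix protein, chondroadherin and a secreted cytokine-like protein known from cartilage, and Ibsp encodes bone sialoprotein. Mgp (matrix Gla protein) and Enpp1, the enzyme that makes pyrophosphate outside the cell, both restrain mineral formation in the arterial wall.

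After removal of barcodes under 500 UMIs, under 300 genes, over 20% mitochondrial UMIs or likely to be doublets, 15410 cells remained, 929 to 4027 per library, with a median of 799 to 8118 UMIs per cell. Depth therefore differed strongly between libraries, and m27mo and f28m held nearly all of the deeply sequenced SMCs. The 3 libraries 3m, f3m and 24m shared 130 to 213 cell barcodes pairwise, against at most 4 for any other pair. Both young libraries belong to those 3, and old against young without them cannot be computed. In 20m, given as male, 70.9% of cells held an Xist UMI, as did 79.0% in f28m and 1.17% in m27mo, and 20m is therefore named by its library name only. Cell types were named from marker genes that did not include the 9 genes, and the cells came to 3588 SMCs, 1769 fibroblasts (FBs) and 2110 blood vascular endothelial cells (ECs), of which the young libraries held 57, 119 and 146. In these sums, fewer cells of a kind and less RNA per cell cannot be told apart.

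The 9 genes differed in where they lay. Mgp was a gene of the whole vessel wall, Cytl1 of ECs and Chad of airway epithelium, while Runx2 had its highest mean levels in immune cells. Sox9 lay mostly in SMCs and FBs. SMCs held most UMIs of Enpp1 and of the sparse Acan, Comp and Ibsp, and ECs came second for Comp with 20.7%. Such shares lean to SMCs, which in m27mo alone gave 22457572 of the 36218542 UMIs of that library. The share of SMCs in the UMIs of all genes was not computed. By level, Comp was highest in lymphatic ECs. Mgp gave 251606 UMIs in 52.2% of all cells, Cytl1 gave 20875 in 13.9%, Sox9 gave 2026 in 7.11%, and Enpp1 gave 1338 in 6.79%. Chad, Runx2 and Comp gave 818, 778 and 710 UMIs, Acan gave 98 and Ibsp gave 27. Levels are given below as CPM, a gene's count scaled to 1e6 of the summed UMIs of a cell type in a library with at least 10 such cells, as mean ± SD over libraries.

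**Figure D1:**
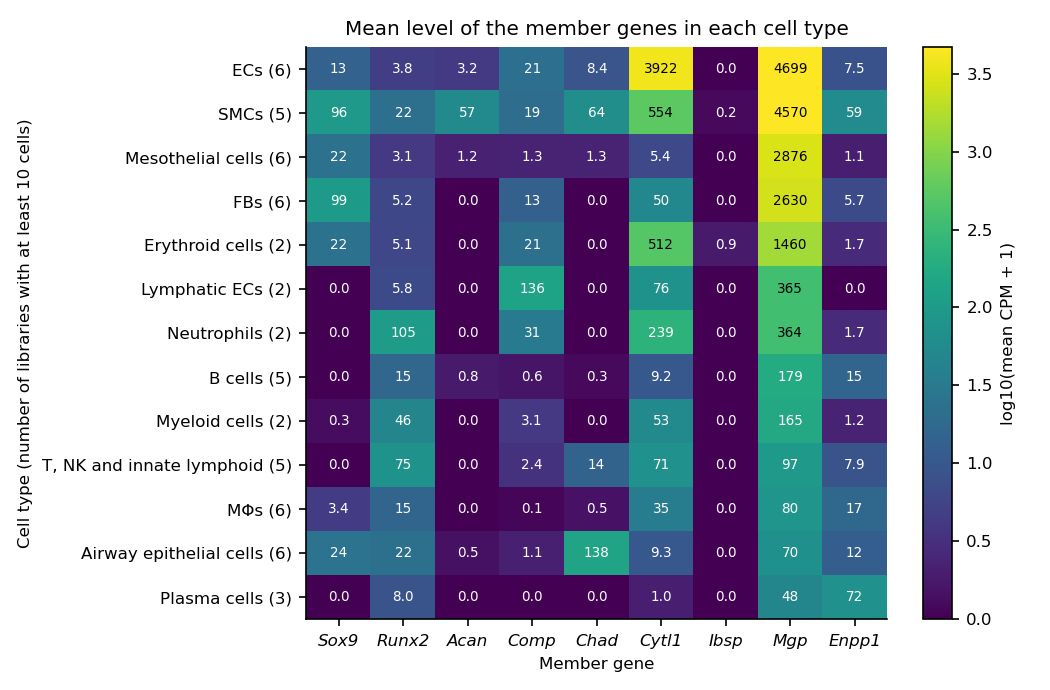
Mean CPM over libraries of each of the 9 genes (columns) in each cell type (rows, with the number of libraries), coloured by log10(mean CPM + 1). Mgp is high along the upper 4 rows, Cytl1 peaks at 3922 CPM in ECs and Chad at 138 CPM in airway epithelial cells.

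The start sites of Cytl1 and Chad are shown because, among the members with over 100 UMIs, they were the most concentrated in 1 cell type, with 88.3% of Cytl1 UMIs in ECs and 82.0% of Chad UMIs in airway epithelial cells. RefSeq tables of GRCm38.p6 held 6 of the 9 genes, and the 250 bases before each start on the plus strand are printed 5′ to 3′, in lower case with motif matches in capitals. Matches were searched on both strands. The TATA box was searched as TATAAA. The core bound by ETS factors was searched as CAGGAA. The core bound by SOX factors was searched as AACAAT. The E-box was searched as CACCTG. No matches overlapped each other.
Cytl1, chr5:37735269-37735518: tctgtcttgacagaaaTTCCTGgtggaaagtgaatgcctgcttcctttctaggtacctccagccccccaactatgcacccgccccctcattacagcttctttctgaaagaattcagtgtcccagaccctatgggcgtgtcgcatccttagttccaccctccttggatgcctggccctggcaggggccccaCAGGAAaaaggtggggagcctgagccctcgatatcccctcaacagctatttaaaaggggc
Chad, chr11:94564797-94565046: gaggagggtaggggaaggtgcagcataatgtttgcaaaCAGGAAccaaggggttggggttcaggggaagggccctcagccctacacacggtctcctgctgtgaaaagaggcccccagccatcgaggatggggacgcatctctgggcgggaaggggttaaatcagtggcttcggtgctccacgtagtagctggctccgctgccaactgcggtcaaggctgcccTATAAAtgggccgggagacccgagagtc
Upstream of Cytl1 the ETS core was found at 234 and at 60 bases before the start, and no TATAAA was found. Upstream of Chad, TATAAA lay 28 bases before the start and the ETS core lay 212 bases before it. Of 32851 mouse promoters of this length, 25.7% held CAGGAA or its reverse complement, 12.4% TATAAA, 9.42% AACAAT and 17.2% CACCTG. These matches describe letters only, and no binding was measured.

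Cytl1 was an EC gene in every library. Its level in ECs was 6986 CPM in 3m, 4082 in f3m, 3891 in 20m, 2146 in 24m, 4036 in m27mo and 2389 in f28m, a mean of 3922 ± 1728 CPM (SD, n = 6). Library 3m stood highest and f3m lay just above the highest old library, so that the young and old values did not overlap. SMCs came next at 554 ± 729 CPM (n = 5), and ECs were higher in 5 of 5 libraries with both types (exact sign-flip test, two-sided, p = 0.0625, the smallest 5 pairs allow, adjusted p = 0.929 over 26 pairs of cell types). Within ECs, Cytl1 was unevenly spread. Cluster 19, led by genes of capillary ECs such as Gpihbp1 and Fabp4, held 8.11 CPM in m27mo and 20.0 CPM in f28m, where cluster 7 of the same libraries held 4516 and 2850 CPM. Cluster 3, which held most ECs of the other 4 libraries, ranged from 2151 to 7133 CPM, and within it the ages overlapped, with 5129 CPM in m27mo against 4207 CPM in f3m. Cluster 19 made up 10.1 and 21.9% of ECs in m27mo and f28m and at most 3.23% elsewhere. Free RNA, read from barcodes with at most 100 UMIs, carried Cytl1 at 114 to 201 CPM in 5 libraries and at 856 CPM in 20m.

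Old ECs had a lower Cytl1 level than young ECs by these sums, 3116 against 5534 CPM, but the difference did not pass the test. The log2 fold change was -0.83 ± 0.54 (SE) with an adjusted p of 0.909 in edgeR's quasi-likelihood test over 5891 genes, none of which was called in ECs (0.0% of those tested). Without 3m it was -0.33, and with cluster 3 only -0.54. When every cell was thinned to 500 UMIs, 75.8 to 89.3% of young ECs and 49.6 to 76.2% of old ECs held a Cytl1 UMI (exact permutation test, two-sided, p = 0.267, smallest possible 0.133). The same thinning gave 0 to 1.33% of B cells, which should lack the gene and whose median depth ran from 614 to 7081 UMIs. In FBs no Cytl1 UMI was found in the 119 young cells, and the old libraries held 124, 70.1, 78.2 and 29.7 CPM. The UMIs lay in few cells, such as 45 UMIs in 4 of 120 FBs of 20m, with 28 in 1 cell. The mean of the old libraries was 75.6 CPM, and 3 counts over both young libraries would give 29.95 CPM (exact permutation p = 0.133, the smallest possible, adjusted p = 0.889 over 40 such tests). That limit takes UMIs as independent, which these clumped UMIs were not, and no fold is given. By cells, the 119 young FBs allow a share of up to 2.52%. Thinned old FBs held a Cytl1 UMI in 1.40 to 2.50%, within that limit. In each old library the level in FBs lay below that of Cytl1 in free RNA, and the part of free RNA in this difference was not tested.

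Mgp was high in ECs, SMCs, mesothelial cells and FBs, in that order, at 4699 ± 1464, 4570 ± 1752, 2876 ± 885 and 2630 ± 1190 CPM (SD, n = 6, 5, 6 and 6). No neighbours in this order differed beyond their spread within libraries (exact sign-flip tests, two-sided, p = 0.75, 0.375 and 0.75). SMCs, the most numerous cells, held 74.5% of all Mgp UMIs. B cells, T, NK and innate lymphoid cells, macrophages (MΦs) and airway epithelial cells had means of 69.8 to 179 CPM, while free RNA held Mgp at 253 to 2563 CPM.

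In FBs the Mgp level was 1022 CPM in 3m and 2055 in f3m, against 1887 in 20m, 3230 in 24m, 4316 in m27mo and 3268 in f28m. Only 20m fell within the young range. The log2 fold change was 1.22 ± 0.46 with an adjusted p of 0.702 over 6599 genes, of which 3 were called in FBs (0.0455%). Mgp in FBs also had an unadjusted p under 0.05 with a fold over 2 in edgeR's test, as did 434 of the 6599 genes (6.58%). In thinned cells, 21.1 to 34.5% of young FBs and 39.2 to 55.0% of old FBs held an Mgp UMI, with no overlap (exact permutation p = 0.133, the smallest possible), and B cells held one in 0.838 to 6.45%. FBs of 3m and f3m fell mostly in cluster 15, led by Tnfaip6 and Ptx3, whereas all FBs of m27mo and f28m fell in cluster 1, led by Dpt and Abca8a. Within cluster 1 the Mgp level was 907 and 3184 CPM in the young and 3268 to 8006 CPM in the old libraries, and within cluster 15 it was 1077 and 1332 CPM in the young and 1462 and 2625 CPM in 20m and 24m.

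In SMCs the Mgp level was 2849 CPM in 3m, 4090 in f3m, 3074 in 20m, 6531 in m27mo and 6304 in f28m, and 24m had too few SMCs. Old library 20m again lay within the young range, and the log2 fold change was 0.94 ± 0.63 (adjusted p = 0.684, edgeR). Without 20m it was 1.27 with an adjusted p of 3.8e-04, so that this library decides the call. Mgp was not alone there, as that fit called 161 genes higher and 55 lower in old SMCs, of 3830 tested. SMCs of the libraries sat in different clusters, with 153 of 161 SMCs of 20m in cluster 23, most young SMCs in cluster 16 and most of m27mo and f28m in clusters 0 and 2. A fit on cluster 16 alone also lacked 20m and gave 1.42 (adjusted p = 0.0122), and library and cluster cannot be told apart there. The cluster 16 fit called 24 genes higher and 20 lower, of 2377 tested. Of 6557 genes tested in SMCs, 0.0% were called with all 5 libraries. As 24m is missing here, the libraries that share barcodes are exactly the young ones. In SMCs age and that sharing therefore cannot be told apart.

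ECs went the other way, with Mgp levels of 6588 CPM in 3m and 6180 in f3m against 3714, 3103, 5057 and 3556 CPM in 20m, 24m, m27mo and f28m. The young values lay above all 4 old ones, but the log2 fold change of -0.73 ± 0.50 did not pass (adjusted p = 0.912, edgeR). Cluster 19 held Mgp at 1193 CPM in m27mo and 180 CPM in f28m. Within cluster 3 alone, m27mo stood at 7287 CPM and the age groups overlapped. The difference between both cell types in the age contrast was tested after these values were seen, by an interaction term with the library as a block. Old against young was lower in ECs than in FBs by 2.11 ± 0.34 on the log2 scale (adjusted p = 0.0213, edgeR), and 2 of 8953 genes passed (0.0223%). The direction held in each of 14 alternatives, from -1.74 to -2.35, and the call was lost in 6 of them. In 3 of these 1 library was left out, 3m (adjusted p = 0.858), f3m (0.669) or 24m (0.108), and another left out cluster 19 (0.142).

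**Figure D2:**
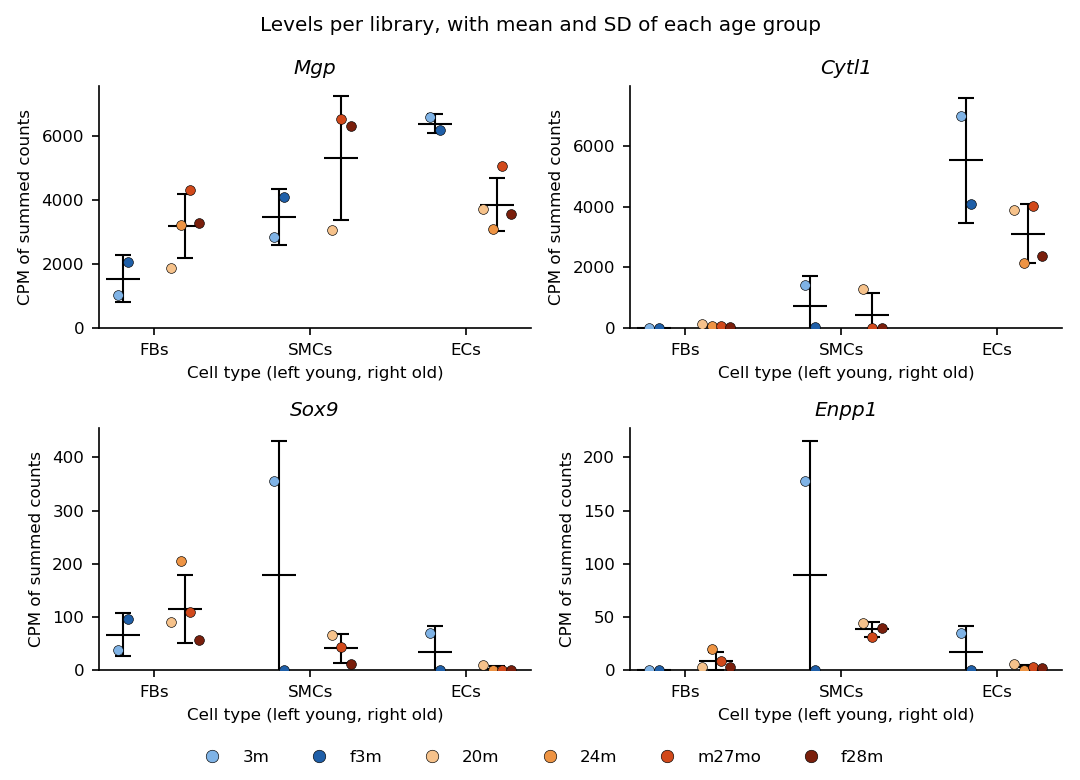
CPM of summed counts of Mgp, Cytl1, Sox9 and Enpp1 in FBs, SMCs and ECs. Points are libraries with at least 10 cells, young on the left and old on the right of each type, and bars give mean and SD, cut at 0. Mgp lies higher in old than in young libraries in FBs, with 20m inside the young range, and lower in ECs.

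In mesothelial cells, which cover the outer surface, Mgp was even across ages at 1407 to 4074 CPM (log2 fold change 0.14 ± 0.64, adjusted p = 1, edgeR). Its sign turned under 6 of 18 alternatives. In airway epithelial cells Mgp stood at 9.71 to 34.7 CPM in 5 libraries and at 342 CPM in m27mo, and the log2 fold change of 3.12 ± 1.71 did not pass (adjusted p = 0.776, edgeR, 0.0% of 8233 genes called).

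Sox9 had its highest mean in FBs, not beyond the spread from that in SMCs of 95.6 CPM (exact sign-flip test, two-sided, p = 1). The SMC mean rests on 1 barcode of 3m and was 30.5 CPM without that library. In FBs Sox9 was measured at 37.9 CPM in 3m, 95.6 in f3m, 91.2 in 20m, 205 in 24m, 109 in m27mo and 56.5 in f28m (mean 99.3 ± 58.4 CPM, n = 6). The young values rest on 3 and 2 UMIs, and they overlapped the old ones. The log2 fold change was 1.14 ± 0.80 (adjusted p = 0.816, edgeR). In the deep libraries 36.5% of FBs in m27mo and 22.5% in f28m held a Sox9 UMI, and when thinned to 500 UMIs the share was 2.46 to 10.7% in old and 1.11 to 6.90% in young libraries. B cells held none after thinning.

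SMCs of the old libraries also held Sox9, at 66.6 CPM in 20m, 44.0 in m27mo and 11.5 in f28m. In m27mo 445 of 2404 SMCs had a Sox9 UMI, up to 24 in 1 cell, and 42 cells with 5 or more UMIs carried 349 of the 982 UMIs counted there outside the barcode with cartilage markers described next. The young SMCs gave 8 UMIs in 3m and 0 in f3m, and all 8 came from 1 barcode. That barcode held 4 of the 10 cartilage cell markers fixed for checking (Col2a1, Snorc and others), and no Acta2 or Myh11 UMI. With it, the log2 fold change of Sox9 in SMCs was -1.80 ± 1.43 (adjusted p = 0.757, edgeR). Without it no young SMC held Sox9, and the sign turned (adjusted p = 0.732).

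Barcodes of this kind decided several of the values in SMCs. Of 15410 cells, 14928 held none of the 10 cartilage cell markers, 460 held 1, 17 held 2, and 5 held 4 or 8. Of these 5, 3 clustered with SMCs in 3m and 20m, 1 with SMCs in m27mo and 1 with ECs in 20m, and together they held 1 Acta2 and 0 Myh11 UMIs, the defining contractile genes of SMCs. The 4 barcodes among 3588 SMCs carried 111 of the 119 Chad UMIs in SMCs (93.3%), 804 of 1084 Cytl1 UMIs (74.2%), 16 of 82 Acan UMIs (19.5%), 28 of 377 Comp UMIs (7.43%) and 23 of 1099 Sox9 UMIs (2.09%). The richest of them, in 20m, held 408 Cytl1, 56 Chad, 21 Comp and 10 Sox9 UMIs among 4922. Without them Cytl1 in SMCs dropped from 1425 to 46.6 CPM in 3m and from 1277 to 104 CPM in 20m, and Chad dropped from 141 to 4.09 CPM in 20m.

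**Figure D3:**
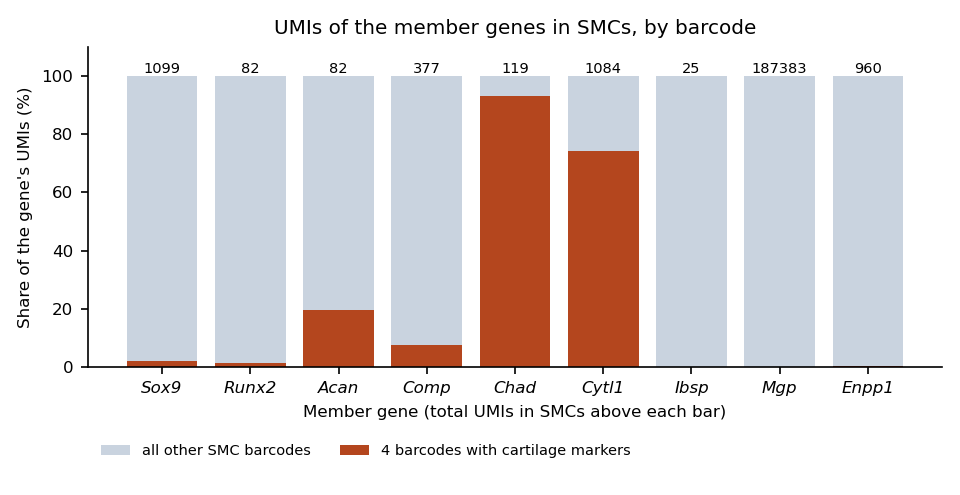
Share of each gene's UMIs in SMCs (vertical axis, %) that lay in the 4 SMC barcodes with at least 4 cartilage markers (red) and in all other SMC barcodes (grey), with total UMIs above the bars. Chad and Cytl1 are mostly red, at 93.3% and 74.2%, and Mgp, Enpp1 and Ibsp are nearly all grey.

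Acan, the main proteoglycan of cartilage, was sparse. SMCs of m27mo held 66 of the 98 UMIs in 43 cells (2.94 CPM), f28m held 4 and 20m held 6. Without the barcodes with cartilage markers, SMCs of m27mo held 59 in 42 cells and those of 20m held 2. In FBs no Acan UMI was found in 1769 cells, which allows a share of cells with a UMI of up to 0.170% and sets no limit on cells that express it below detection. Free RNA of 3m held 153 Acan UMIs (29.6 CPM), more than all kept cells of all libraries together, and that of f28m held none. In SMCs the old level was 5.23 CPM and the young level 134 CPM (exact permutation test, two-sided, p = 0.8, smallest possible 0.2). All of the young level came from 2 barcodes of 3m, and the barcode with cartilage markers gave 5 of their 6 UMIs.

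Ibsp was at the edge of detection. SMCs of m27mo held 25 of its 27 UMIs, in 18 of 2404 cells with at most 4 UMIs each, and no other SMC library held any. The limit of 3 counts over both young libraries is 67.1 CPM, far above the 1.11 CPM of m27mo, so that a difference with age was not detectable at this depth. None was found in 2110 ECs or 1769 FBs, which allows shares of cells with a UMI of up to 0.142% and 0.170% at these depths. Free RNA of 3m held 19 Ibsp UMIs.

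Comp was found in small cell groups. Lymphatic ECs, which line lymph vessels, had the highest level at 127 CPM in m27mo and 145 CPM in f28m, the only libraries with at least 10 of these cells. Neutrophils and erythroid cells had means of 30.5 and 21.5 CPM (n = 2), each from 1 UMI in 24m. Among types with at least 5 libraries, ECs were highest at 21.1 ± 18.6 CPM (n = 6) and SMCs at 19.4 ± 29.4 CPM (n = 5), which did not differ beyond their spread (exact sign-flip test, p = 0.75). SMC levels were 0 in both young libraries and 70.6, 10.9 and 15.7 CPM in 20m, m27mo and f28m, and 28.6 CPM in 20m without the barcodes with cartilage markers. The 57 young SMCs put the limit of 3 counts at 67.1 CPM, and no fold is given. In thinned SMCs the share with a Comp UMI was 0 in the young and 0.541 to 2.48% in the old libraries (exact permutation p = 0.2, the smallest possible), with 0 to 0.433% in B cells.

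The ECs with Comp were alike in both libraries that held most of them, 23 of 670 cells in 20m and 15 of 798 in f28m. The 10 genes with the largest excess in Comp-positive over Comp-negative ECs were picked in 20m and then read in f28m. Of these 10, 9 were again higher in f28m and 7 by over 1 on the log2 scale (Cd36 was lower). Of 8619 genes there, 46.5% were higher and 3.41% by over 1. Here and below, the highest genes were picked among those with at least 15 UMIs in the positive cells. The share over all genes needs 15 UMIs over positive and negative cells together, so it comes from an unlike set and is a rough background only. Chrm3, a muscarinic receptor, stood at 697 against 95.8 CPM in 20m and at 888 against 120 CPM in f28m, and the transcription factor Foxp2 at 298 against 38.3 and at 720 against 47.4 CPM. Ahsg (fetuin-A, a circulating inhibitor of mineral growth and on the list of inhibitors used here) stood at 813 against 108 and at 1405 against 79.2 CPM. All 10 genes lowest in Comp-positive ECs of 20m were lower again in f28m, among them Ly6a and Fabp4, where 53.5% of all genes were lower. The summed level of 10 EC markers was lower in the Comp-positive cells, 4730 against 8483 CPM in 20m and 7883 against 14800 CPM in f28m, with 4 and 1 of the 10 markers higher. The sum of 10 FB markers was higher, 3976 against 1284 and 7982 against 1391 CPM, through 4 and 3 of the 10 markers. That of 7 lymphatic EC markers was 863 against 445 and 1004 against 328 CPM, through 1 and 6 of the 7. Lyve1, 1 of these 7, was among the 10 lowest genes of the Comp-positive cells. These cells also had more UMIs, with medians of 3311 against 1903 and 8360 against 2770. The part of depth, of mixed barcodes and of FB RNA in this pattern was not tested, and the pair of libraries was chosen after these values were seen.

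SMCs with a Sox9 UMI were compared with SMCs without one in the same way. There were 444 of 2403 such cells in m27mo and 52 of 963 in f28m, after the barcodes with cartilage markers were left out. Of the 10 genes with the largest excess in m27mo, 9 were also higher in f28m and 6 by over 1 on the log2 scale, against 47.6% and 0.136% of 11733 genes. Rgs5, a regulator of G protein signalling also used as a pericyte marker, stood at 948 against 448 CPM in m27mo and at 904 against 326 CPM in f28m. Pde10a, a phosphodiesterase of cyclic nucleotides, stood at 142 against 64.6 and at 392 against 116 CPM, and Pde4d at 572 against 339 and at 813 against 333 CPM. All 10 genes lowest in m27mo were lower in f28m too, among them Igfbp2 at 16.9 against 54.5 and at 7.84 against 50.8 CPM, and Ccn5 at 51.2 against 92.8 and at 44.4 against 124 CPM. Decorin (Dcn) was the exception among the higher genes, at 87.1 against 47.0 CPM in m27mo and 15.7 against 31.5 CPM in f28m. The sum of 5 pericyte markers was higher in Sox9-positive SMCs of both libraries, 1567 against 1006 and 1615 against 915 CPM, mostly through Rgs5 itself. The sum of 10 SMC markers was lower in both, 28490 against 31820 and 31560 against 34940 CPM, though 1 and 4 of the 10 markers were higher. That of 10 FB markers went opposite ways, 3370 against 3290 CPM in m27mo and 2490 against 3025 CPM in f28m. The median depth was 10290 against 9116 and 7166 against 6571 UMIs. In FBs, of the 10 genes highest in Sox9-positive cells of m27mo, 7 were higher in f28m and 0 by over 1. There 54.2% of all genes were higher. The 10 included Acta2, Myh11 and Tagln, whose log2 differences in f28m were 0.04, -0.31 and -0.08. In these FBs the sum of 10 SMC markers was 1757 against 714 CPM in m27mo and 318 against 306 CPM in f28m. Of the 10 lowest, 9 were lower in f28m and 0 by over 1, where 45.8% of all genes were lower. Each side of these contrasts is 1 library, and no test is given.

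**Figure D4:**
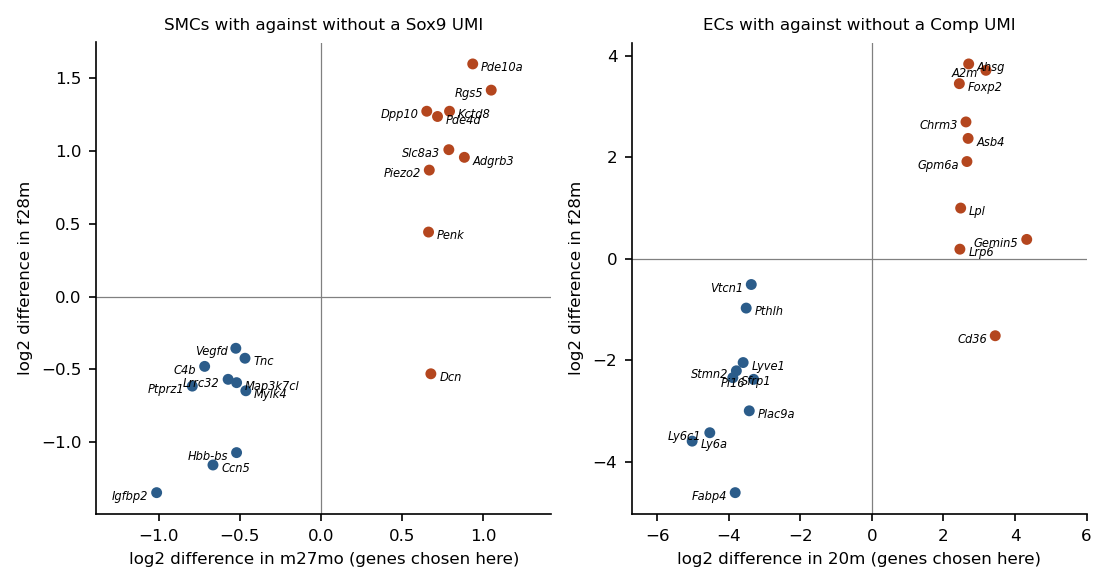
Log2 differences between cells with and without a UMI, for Sox9 in SMCs (left) and Comp in ECs (right), in the library where the 10 highest (red) and 10 lowest (blue) genes were chosen (horizontal axis) and in f28m (vertical axis). All blue genes lie below 0 in f28m, and in each panel 9 of 10 red genes lie above 0.

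Chad was an airway gene in these preparations. Airway epithelial cells held 102 CPM in 3m, 132 in f3m, 182 in 20m, 120 in 24m, 152 in m27mo and 139 in f28m, a mean of 138 ± 27.4 CPM (n = 6). Young and old overlapped (log2 fold change 0.19 ± 0.36, adjusted p = 0.933, edgeR). SMCs came second at 64.2 ± 88.0 CPM, nearly all from the barcodes with cartilage markers, and 1 Chad UMI was found in all FBs. Sox9 in airway epithelial cells was 9.46 to 38.9 CPM with a log2 fold change of -0.03 ± 0.51 (adjusted p = 0.997, edgeR), a sign that turned under 8 of 17 alternatives.

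Runx2 lay mainly outside the vessel wall cells. Neutrophils held 122 CPM in 24m, below the limit of 3 counts there (183 CPM), and 88.2 CPM in f28m. T, NK and innate lymphoid cells held 75.3 ± 56.4 CPM (n = 5). They lay ahead of airway epithelial cells at 21.9 ± 5.19 CPM (n = 6) in 4 of 5 libraries (exact sign-flip test, p = 0.125, adjusted p = 0.929). Their value in 3m, 47.3 CPM, rests on 2 UMIs and lay below that of free RNA in 3m. By UMIs, airway epithelial cells held the most Runx2, with 115 of 778. SMCs held 82 of the 778 Runx2 UMIs, with 12.1, 2.36 and 3.39 CPM in 20m, m27mo and f28m, and young values of 0 in 3m and 89.9 CPM from 2 UMIs in f3m. Free RNA held Runx2 at 136 CPM in 3m and 65.8 CPM in f3m, above the level of SMCs in 3m and below that in f3m. Thinned SMCs with a Runx2 UMI made up 0 to 3.12% of a library, beside 0 to 3.23% in B cells, which gave 104 Runx2 UMIs. In airway epithelial cells the log2 fold change with age was 0.15 ± 0.36 (adjusted p = 0.955, edgeR).

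Most Enpp1 UMIs lay in SMCs (71.75%), while plasma cells had the highest mean level. It was 72.0 ± 63.1 CPM (SD, n = 3), against 58.6 ± 69.0 CPM (n = 5) in SMCs. SMCs held 44.4 CPM in 20m, 30.6 in m27mo and 39.7 in f28m, close to each other, while the young libraries gave 178 CPM from 4 UMIs in 3m and 0 in f3m. Of those 4 UMIs, 3 came from the barcode with cartilage markers. The log2 fold change was -0.89 ± 0.93 (adjusted p = 0.811, edgeR), and its sign turned without that barcode. Plasma cells held 98.2 CPM in 24m, 118 in f28m and 0 in 3m. The value in 24m equals the limit of 3 counts there, and in 3m that limit was 224 CPM over 13 cells. In MΦs Enpp1 was 4.35 and 16.3 CPM in young and 4.23 to 30.7 CPM in old libraries (log2 fold change 1.61 ± 1.04, adjusted p = 0.803, edgeR, 0.0% of 5817 genes called).

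Over the 6 cell types with enough cells, 14 age tests of 6 of the 9 genes could be made by edgeR, and 0 passed, with 8 of 14 log2 fold changes above 0. The other type tested was mesothelial cells, in which 42 of 8785 genes were called (0.478%). There Sox9 came nearest to a call, with 48.9 CPM in 3m and 0 in f3m against 14.9 to 32.8 CPM in the old libraries, and a log2 fold change of -1.44 ± 0.58 (adjusted p = 0.431, unadjusted p = 0.013, edgeR). Sox9 there and Mgp in FBs were the 2 tests with an unadjusted p under 0.05 and a fold over 2, a criterion that 614 of the 8785 genes also met in mesothelial cells (6.99%). The young fold rests on 3m, since without it the sign turned. Young mesothelial cells lay almost all in cluster 8 (428 in 3m and 12 in f3m), and those of m27mo and f28m mostly in cluster 20 (80 and 117). Where no gene was called, 339 genes in ECs, 508 in airway epithelial cells, 305 in MΦs and 539 in SMCs had an unadjusted p under 0.05, and DESeq2 called 1, 2, 4 and 1. In a simulation on the real depths, 0 of 200 genes changed 4-fold were recovered in FBs and 7 of 200 in SMCs. At 16-fold, 159 and 112 of 200 were recovered. The dispersion of the simulation was set and not estimated from these data, so these counts hold for that setting only.

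The clearest differences were between FBs and SMCs of the same 5 libraries, fitted with the library as a block. Of 9787 genes, 3773 passed (38.6%), and 3 of the 4 member genes tested did. Enpp1 was lower in FBs than in SMCs by 2.95 ± 0.28 on the log2 scale (adjusted p = 6.8e-25, edgeR), with FB levels of 0 in both young libraries and 2.76 to 8.29 CPM in 20m, m27mo and f28m. Mgp was lower in FBs by 0.95 ± 0.20 (adjusted p = 5.6e-06), and in 5 of 5 libraries. Sox9 was higher in FBs by 1.26 ± 0.25 (adjusted p = 3.2e-05), in 4 of 5 libraries, with 3m the exception through its 1 barcode. The Sox9 call was lost in 5 of 17 alternatives, among them DESeq2 (adjusted p = 0.466) and leaving out f3m (0.173) or f28m (0.156), and without m27mo and f28m the sign turned at -0.25. Cytl1 did not pass (-0.55 ± 1.84, adjusted p = 0.864, edgeR). Leaving out the barcodes with cartilage markers made it higher in FBs by 1.94 (adjusted p = 0.0493, edgeR). None of those barcodes lay among FBs, so leaving them out lowers Cytl1 in SMCs only, and they were singled out after the data were seen. Cytl1 in FBs was 0 in both young libraries and below its level in free RNA in each old one. Without the block, the Mgp value was -0.91 (adjusted p = 0.253) and the Sox9 value 0.44 (adjusted p = 0.845).

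**Figure D5:**
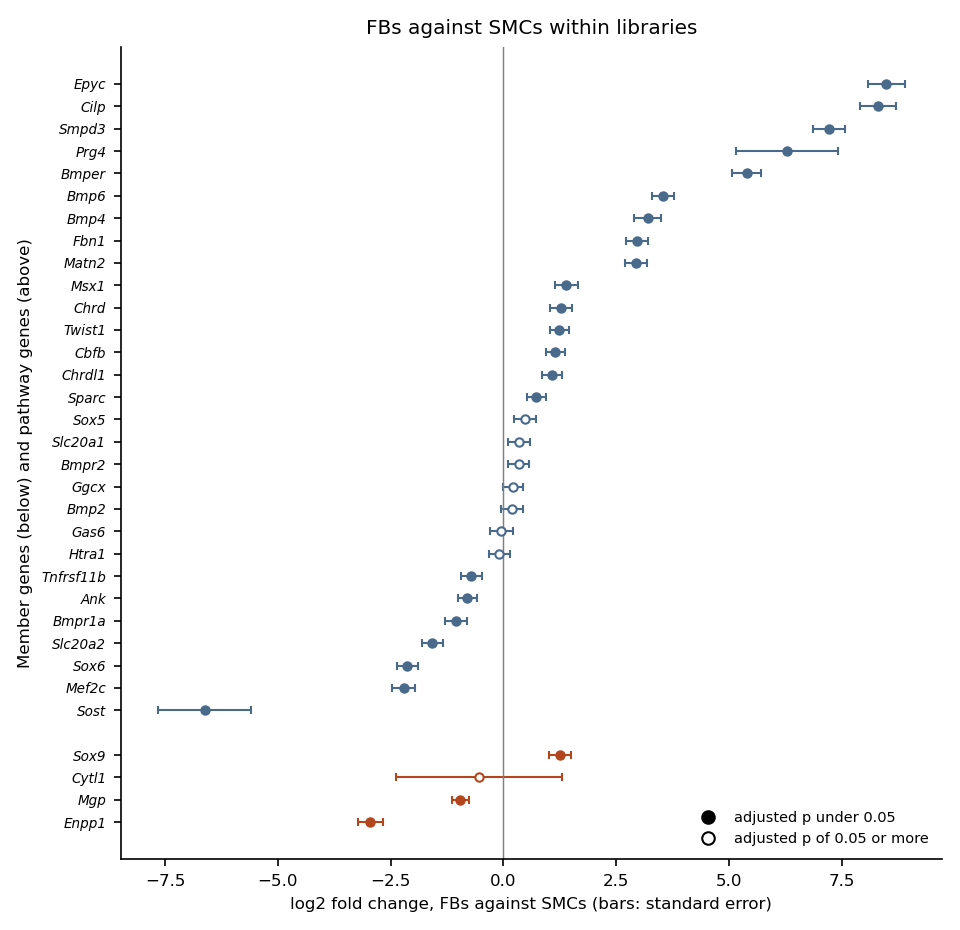
Log2 fold change of FBs against SMCs within libraries (horizontal axis, bars are the standard error) for the 4 member genes tested (red) and the pathway genes reported (blue). Filled points passed an adjusted p of 0.05. Enpp1 and Mgp lie left of 0 and Sox9 right of it, and Epyc, Cilp and Smpd3 lie farthest right.

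The other genes of these pathways were read from 3 lists. Of 25 cartilage genes, 6 were tested between FBs and SMCs, 4 were higher in FBs and 1 lower. Epyc and Matn2, both matrix genes, were higher by 8.49 ± 0.40 and 2.95 ± 0.24, and Cilp and Prg4 by 8.30 ± 0.39 and 6.29 ± 1.13, while Sox6, a partner of Sox9, was lower by 2.13 ± 0.23. The median log2 fold change of the 6 tested was 4.62, beside -0.01 over all genes tested. A gene could pass the gene filter through either cell type alone. The medians given here therefore cover the tested genes and do not describe the whole lists. Of 26 genes of bone formation and mineralization, 13 were tested, 7 were higher in FBs and 3 lower (median 0.73). Smpd3, Bmp6 and Bmp4 were higher by 7.21 ± 0.36, 3.53 ± 0.25 and 3.20 ± 0.30, and Msx1, Twist1, Cbfb and Sparc by 0.73 to 1.40. Mef2c, Slc20a2 (a phosphate carrier) and Bmpr1a were lower by 2.21 ± 0.26, 1.58 ± 0.24 and 1.06 ± 0.25. Of 19 inhibitors, 11 were tested, 4 were higher and 4 lower (median -0.05). Bmper, Fbn1, Chrd and Chrdl1 were higher by 5.39 ± 0.32, 2.95 ± 0.24, 1.28 ± 0.24 and 1.08 ± 0.22, and Sost, Ank (the pyrophosphate carrier) and Tnfrsf11b were lower by 6.63 ± 1.03, 0.80 ± 0.21 and 0.72 ± 0.23. Sost, known as the osteocyte product sclerostin, gave 45312 UMIs, of which 44078 lay in SMCs.

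With age, 0 genes of these lists passed in any of the 6 cell types. The cartilage list had 5 genes tested in FBs (median log2 fold change 0.28, against 0.24 over all genes), and 2 tested in SMCs (median 0.35, against 0.48). The bone list had 12 tested in FBs (median -0.25) and 8 in SMCs (median 0.23). No gene could pass the gene filter through the young libraries alone, and FBs of 20m, m27mo and f28m were deeper than young FBs. Without a gene filter the median over all genes in FBs was 1.31. The direction of the tested genes therefore does not show a change with age. The genes of each list with the highest level in FBs were Sox5, Cilp and Prg4 at 223 ± 109, 95.9 ± 63.7 and 87.4 ± 78.6 CPM, Sparc, Smpd3 and Bmpr2 at 1531 ± 569, 661 ± 383 and 280 ± 135 CPM, and Fbn1, Gas6 and Htra1 at 1494 ± 384, 217 ± 168 and 174 ± 60.0 CPM (SD, n = 6). The 10 cartilage markers gave 5 (Matn1) to 196 (Cnmd) UMIs each in kept cells, and Col2a1 gave 33, of which 17 lay outside the 5 barcodes with cartilage markers. The 6 osteoblast markers gave 4 (Dmp1) to 340 (Phex, 229 of them in SMCs). In FBs the cartilage markers summed to 2.98 to 47.8 CPM, with 153 UMIs in f28m (28.9 CPM), and in ECs of 20m to 33.3 CPM without those barcodes. The 10 cartilage markers summed to 0 CPM in young SMCs and to 5.01 to 22.5 CPM in old SMCs without those barcodes, and the 6 osteoblast markers to 0 and 45.0 CPM (1 UMI) in young and 6.13 to 9.22 CPM in old SMCs. Over all 57 young SMCs 3 counts equal 67.1 CPM, above each of these sums, so that no difference with age can be read from them.

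Across 56 profiles of cell type and library, the genes whose log2(CPM + 1) followed each member most closely were found among 18064 genes with at least 50 UMIs. Mgp was followed by Bgn (r = 0.94), Eln (0.89) and Ptgis (0.88), which encode biglycan, elastin and prostacyclin synthase. Cytl1 was followed by Gja4 (0.82), Mmrn2 (0.80) and Myrip (0.79), and Comp by Adgra2 (0.77), Fgd5 (0.67) and Sncaip (0.64). Acan was followed by Col11a1 (0.84), A530058N18Rik (0.83) and Gm17168 (0.82). Sox9 was followed by Igdcc4 (0.81) and Scrn1 (0.80), Chad by 1700007K13Rik (0.78), Gabrp (0.76) and 2610028H24Rik (0.76), Runx2 by Armc7 (0.79), Mppe1 (0.71) and Tmem156 (0.66), and Enpp1 by Pard6a (0.64), Pigo (0.63) and Specc1 (0.62). These correlations describe profiles that share libraries and depth, and for sparse genes such as Acan and Enpp1 they also share zeros. Ibsp had too few UMIs.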

How the data were processed

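Proximal PAs of 6 mouse libraries, 2 young and 4 old, were profiled by droplet single cell RNA sequencing. Per the labels and the study's methods, the authors trimmed reads with cutadapt, aligned them to GRCm38.p6 with STAR and counted UMIs per barcode with STARsolo (versions not given in the sources used here). The deposited values are raw UMI counts for every barcode and 53647 genes, with no normalization. The submitters' gene identifiers carry versions later than the annotation at hand, so genes were matched by symbol only.

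Barcodes with at least 500 UMIs, 300 genes and at most 20% mitochondrial UMIs were kept, and likely doublets were removed with scrublet in scanpy 1.11.5. In 3m, 20m and 24m, where its own threshold marked almost none, the highest scores were removed up to the share expected from the number of cells. Cells were clustered on 2000 variable genes (40 principal components, 15 neighbours, Leiden resolution 1), from which the 9 member and the pathway genes were left out, and clusters were named from fixed markers. The rule that an erythroid name needs 3 of its genes among the 10 leading ones was set after the data were seen, and a myeloid cluster failed the check of leading genes and was not compared between ages. The 9 genes and all lists were chosen with earlier results of these data known. The labels do not name the animals, so p-values measure only the spread between these libraries.

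UMIs of all cells of a type were added up within each library (at least 10 cells) and tested with edgeR 4.0.16 (quasi-likelihood, TMM, robust) on genes that more than 5% of the cells held in 3 or more libraries, with Benjamini-Hochberg adjustment and a threshold of 0.05. DESeq2 1.42.0 was an alternative. Members under that filter were tested by exact permutation over libraries (two-sided). The edgeR fits with age in each cell type and of FBs against SMCs were tested on simulated data. The simulated dispersion was the same for all genes and was not estimated from these data. DESeq2 was not tested in this way. All 9 members and any pathway gene past the threshold are named, otherwise the 3 of each list with the highest mean CPM in FBs. Barcodes with at least 3 cartilage markers were singled out after the data were seen, as were the contrasts of cells with and without Sox9 or Comp (genes with at least 15 UMIs, log2 of CPM plus 20). Library totals were 6355125 to 50436562 UMIs. Limits of 3 counts cover counting error only. Results for a few genes are not reported here.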

Additional observations from a re-analysis of the deposited data

Results flagged for a closer look

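In airway epithelial cells of the old library m27mo, the Mgp level was 342.0 CPM and the next highest of the 4 old libraries held 34.67 CPM. Cytl1 in the same cells stood at 23.34 CPM against 6.487 CPM in the next library. In MΦs, Runx2 stood at 40.17 CPM in the old library 24m and at 7.697 CPM in the next one. Each of these samples was far from the other old libraries by Dixon's criterion, and 3 of 22 groups tested met it, where chance gives about 1 in 20. Free RNA of m27mo held Mgp at 2563 CPM, the highest of the 6 libraries, and Cytl1 at 200.5 CPM, below the 855.6 CPM of 20m. Free RNA of 24m held Runx2 at 33.97 CPM, the highest of the 4 old libraries. The part of free RNA in these 3 values was not tested.

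The log2 fold change of Mgp with age differed between ECs and FBs by -2.113 (interaction term, adjusted p = 0.0213, edgeR). It was -0.73 in ECs and 1.22 in FBs, neither of which passed on its own. The interaction was tested after these values were seen, and its call was lost when either young library was left out. The share of cluster 19 among ECs and of cluster 15 among FBs also differed between libraries. Without cluster 19 the difference was -1.77 (adjusted p = 0.142), and with ECs of cluster 3 only it was -1.79 (adjusted p = 0.0221). The part of cluster 15 in the difference was not tested.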

How the results depend on the processing

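Levels moved by less than 1 SD in 141 of 142 alternatives, the exception being Chad in airway epithelial cells at 107.4 CPM as a mean over cells. Leaving out 1 library cannot move a mean by more than the SD over libraries. For those settings the count therefore does not measure stability. In SMCs the SDs of these members exceed their means, and leaving out 1 library moved Acan from 56.6 to 3.92, Sox9 from 95.6 to 30.5, Enpp1 from 58.6 to 28.7, Chad from 64.2 to 35.8 and Cytl1 from 554 to 337 CPM (3m), and Comp from 19.4 to 6.64 CPM (20m). Member fold changes kept direction and call in 254 of 288 alternatives. Permutation results kept their direction in 105 of 111. The smallest p that the exact permutation tests allow is 0.133, or 0.2 in SMCs, with all libraries. No call could therefore be gained or lost there, and that count measures direction only. No paired analysis was possible because replicate numbers follow accession order, and between FBs and SMCs the library itself was the replicate block. Without that block 1580 genes were called in place of 3773, Mgp stood at -0.91 and Sox9 at 0.44. Settings that gave too few libraries or genes were not run, among them the covariate in SMCs.

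Genes called with age numbered 7 in ECs, 168 in airway epithelial cells, 38 in MΦs, 10 in FBs and 34 in SMCs without a gene filter, and 1, 2, 4 and 1 under DESeq2 in ECs, airway epithelial cells, MΦs and SMCs, and 3 in mesothelial cells. In mesothelial cells they numbered 0 with at least 1000 UMIs, 1 with at least 20 cells or the covariate for shared barcodes, 5 in thinned cells, 8 with filterByExpr or library size only, and 0 without m27mo and f28m. In FBs they numbered 0 with at least 1000 UMIs, in thinned cells, with the covariate, in cluster 15 only, and without m27mo and f28m. In SMCs they numbered 44 in cluster 16 only, 2 with filterByExpr and 72 without m27mo and f28m, and in airway epithelial cells 1 in thinned cells. Leaving out 1 library gave 0 to 122 in mesothelial cells, 0 to 2 in FBs, 0 to 216 in SMCs (the highest without 20m), 0 to 16 for ECs minus FBs and 1733 to 3729 for FBs against SMCs. FBs against SMCs gave 1224 in thinned cells and 827 without m27mo and f28m. ECs minus FBs gave 6 under DESeq2 and without m27mo and f28m, 7 in cluster 3 only, and 1 with filterByExpr, library size only or without cluster 19.

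The Mgp interaction was -1.85 with filterByExpr, -1.86 with library size only and -1.77 without cluster 19, none of which passed the threshold, and -2.35 to -1.74 with 1 library left out. The sign of Mgp in mesothelial cells turned with at least 1000 UMIs (-0.22), at least 20 cells (-0.32), thinned cells (-0.18) and library size only (-0.23), and ranged from -0.32 to 0.87 with 1 library left out (-0.13 without 20m). Sox9 in airway epithelial cells turned under DESeq2 (0.0041), no gene filter (0.0040), library size only (0.10), the covariate (0.23) and without m27mo and f28m (0.42), and ranged from -0.31 to 0.50 with 1 library left out (0.27 without f28m, 0.13 without m27mo). Without 3m, Sox9 turned to 5.95 in mesothelial cells and 11.18 in SMCs, Enpp1 to 11.15 in SMCs and Runx2 to -0.10 in airway epithelial cells, and the larger of these rest on no young count. The ranges with 1 library left out were -1.67 to 5.95 for Sox9 in mesothelial cells, -2.77 to 11.18 for Sox9 and -1.83 to 11.15 for Enpp1 in SMCs, and -0.10 to 0.60 for Runx2. Without barcodes holding cartilage markers, Sox9 in SMCs turned to 10.66, Enpp1 to 1.10 and Chad to 1.45 CPM, old minus young. Enpp1 in MΦs turned to -0.42 with the covariate. Cytl1 between FBs and SMCs turned with at least 1000 UMIs (0.64), without cartilage barcodes (1.94), without 20m (1.35) and without 3m (0.45), with a range of -2.06 to 1.35 over left-out libraries. Sox9 there was 0.81 under DESeq2, 1.25 with filterByExpr, 0.71 to 1.53 with 1 library left out and -0.25 without m27mo and f28m. Old minus young CPM without 1 library ranged from -261.9 to 5.23 for Acan, -130.4 to 47.7 for Chad and -990.8 to 388.9 for Cytl1 in SMCs, and from -25.4 to 20.2 for Comp in ECs (3.58 without m27mo). The cause of these changes was not tested. Depth limits the young SMCs and FBs most, where 3 counts equal 67.1 and 29.9 CPM.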
